A study of Caenorhabditis elegans with 4 samples.

Results

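The regions described here are the 261 of 365 listed N6-methyladenine (6mA) peaks (71.5%, exact 95% interval 66.6 to 76.1%) whose nearest gene the authors' table types as protein-coding. They were chosen by that gene type alone. A further 102 listed peaks had an ncRNA gene nearest to them, and the other 2 had a miscRNA gene or no gene. The samples were whole wild-type *Caenorhabditis elegans* of the Bristol strain at the L4 larval stage, raised at 22 °C from eggs. Untreated animals were set beside animals grown on agar with antimycin A, which blocks electron transport through mitochondrial complex III. The treatment label gives 1.92 µM and 1 sample title gives 1.93 µM. Each condition had 1 DNA library made with an antibody and 1 for which the labels name no antibody, which makes 4 libraries. The labels name the antibody as one against N6-methyladenosine (m6A), the RNA form of the base.

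6mA is adenine with a methyl group on the exocyclic nitrogen. It is common in bacterial DNA, and its presence and level in animal DNA, including that of *C. elegans*, are debated. In methylated DNA immunoprecipitation sequencing (MeDIP-seq), fragments bound by an antibody are sequenced and regions where they pile up are called as peaks. Here 1 peak list came for the whole series, with positions on the genome build ce10 and without peak heights or read counts. All peak names carry 1 prefix that no label spells out, so the list was tied to no library. The values below therefore say where these peaks lay, and contain no contrast between treated and untreated animals. Depth is unknown. Position classes and distances come from the same nearest-gene assignment that chose the peaks, so they are given as descriptions with no test, and intervals cover counting error over the list only. Values for peaks nearest to ncRNA genes stand beside some of them, and those differences were not tested either.

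The 261 peaks named 261 different genes, with 0 genes named more than 1 time. They lay on all 6 nuclear chromosomes. In the list, peaks are numbered from 4 to 1645 with gaps, and the positions behind the missing numbers are not known here. A gene that is not named therefore cannot be called free of a peak. Of the 261 genes, 120 carried the description "hypothetical protein", and 141 had another description. Some of the 141 repeat little more than the gene's name, such as "Protein sdf-9" and "SUPpressor" (*sup-37*). The same number, 120, carried only a clone-based name in the list, such as F58A6.1. Some of these have a locus name in the newer RefSeq gene table (WBcel235), such as *wdr-31* for T05A8.5 and *zig-13* for T17A3.10. Of the genes described as hypothetical proteins, 6 had a locus name in the list: *egl-30*, *egl-26*, *daf-14*, *lin-66*, *eat-17* and *tag-297*.

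By the authors' classes, promoters were the most frequent position. The table placed 81 of the 261 peaks (31.0%, 25.5 to 37.0%) at promoters, 65 (24.9%, 19.8 to 30.6%) in introns and 63 (24.1%, 19.1 to 29.8%) between genes. With promoters limited to a window that began 500 bp before the nearest start and ended 100 bp past it, their share was 14.2%, below that of introns. It was 48.3% among the 149 peaks annotated to the nearest gene or to the transcript at the nearest start, which hold no intergenic peak. Transcription termination sites had 40 (15.3%, 11.2 to 20.3%) and exons 12 (4.6%, 2.40 to 7.89%). Among the 102 peaks nearest to ncRNA genes the order was different, with 56 at promoters (54.9%, 44.7 to 64.8%), 17 at termination sites, 16 between genes and 10 in introns (9.8%, 4.80 to 17.3%).

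The promoter class reached about 1 kb upstream of a start. Of its 81 peaks, 65 were annotated to the same transcript as the nearest start, and their distances ran from -990 to 43 bp, where a minus sign means upstream. The farthest was the peak of T07H3.8 at -990 bp. The nearest upstream peak outside the class was that of *scd-1* at -1004 bp, which is called intergenic. The other 16 promoter peaks belonged to a transcript other than the nearest one, and 5 of them lay downstream of the nearest start. These 5 include B0513.2 (676 bp), annotated to the promoter of a piRNA gene, and Y48C3A.3 (882 bp), R08C7.11 (117 bp) and *isp-1* (584 bp), annotated to promoters of ncRNA genes. The transcript given for Y18D10A.4 (130 bp) did not match the gene table.

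Distance to the nearest start, on either side, had a median of 1325 bp, quartiles of 591 and 2369 bp and a range from 43 to 9349 bp. Over the 149 peaks annotated to the nearest gene or to the transcript at the nearest start, the median was 835 bp. Upstream positions made up 151 of 261 (57.9%, 51.6 to 63.9%). In the 500 bp next to the start the sides were unequal, with 36 peaks upstream and 12 downstream. The next 500 bp had 39 upstream and 15 downstream. From 1000 to 2000 bp there were 42 upstream and 30 downstream, and beyond that the order turned, with 34 upstream and 53 downstream. Around ncRNA genes the innermost 500 bp held 23 peaks upstream and 31 downstream. Within 1000 bp of a start lay 102 of the 261 (39.1%, 33.1 to 45.3%) and 68 of the 102 peaks of ncRNA genes (66.7%, 56.6 to 75.7%).

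Taking the distance as measured from the middle of the peak, 17 of the 261 peaks spanned the nearest start itself, against 35 of the 102 nearest to ncRNA genes. The file does not state the point from which distance is measured. The 5 nearest to a start were those of *cpz-1* (43 bp), *cutl-20* (-50 bp), *daf-1* (-59 bp), *clp-4* (-83 bp) and Y65B4BL.1 (-85 bp). *cpz-1* encodes a cathepsin Z-type cysteine protease needed in moulting, and *cutl-20* a cuticlin-like protein. *daf-1* encodes a TGF-beta family receptor and *clp-4* a calpain, a calcium-dependent protease. Each of these peaks covers the annotated start if the distance runs from its centre. At the other extreme stood Y54F10AL.1 (9349 bp), the aldehyde dehydrogenase gene *alh-12* (-9195 bp), the flap endonuclease gene *crn-1* (8641 bp), ZK380.5 (6570 bp) and T23E7.6 (-6295 bp). The *crn-1* peak was annotated to intron 14 of 22 of the neighbouring *ccep-290*. In all, 14 peaks lay more than 5000 bp from a start.

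**Figure D1:**
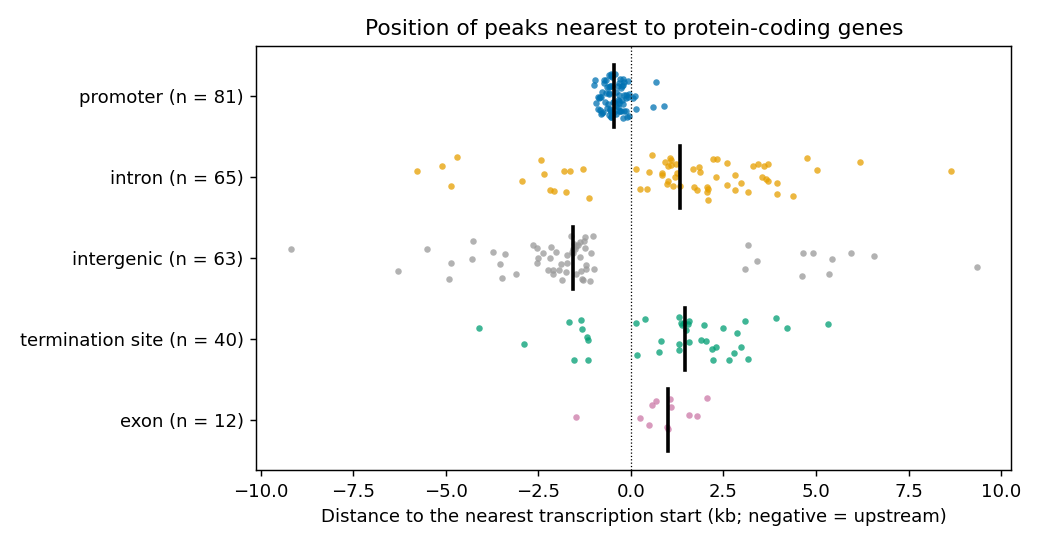
Signed distance to the nearest transcription start in kb (x axis) for each of the 261 peaks, by annotation class (y axis, points spread vertically for visibility), with a bar at each class's median. Promoter peaks sit within 1 kb of the start, intergenic peaks lie mainly upstream, and intron, exon and termination site peaks mainly downstream. The classes are defined by position, so this pattern is in part set in advance.

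The classes differed in side, but they are themselves defined by position relative to transcripts, so this is in part set in advance. Upstream of the nearest start lay 75 of 81 promoter peaks and 52 of 63 intergenic ones, against 14 of 65 intronic, 9 of 40 termination site and 1 of 12 exonic peaks. Of the 14 upstream intronic peaks, 7 were annotated to the nearest gene itself, 6 to another gene and 1 could not be resolved. The 7 include *gcy-28* (-4857 bp, intron 5 of 19), *tlk-1* (-1645 bp, intron 1 of 7) and *daf-14* (-1143 bp, intron 1 of 5). *gcy-28* encodes a receptor-type guanylate cyclase, *tlk-1* a Tousled-like kinase and *daf-14* a Smad protein of the dauer pathway. Intergenic peaks had a median absolute distance of 2118 bp (quartiles 1475 and 3631 bp). They stood upstream of genes such as *bet-1* (-1379 bp), which encodes a bromodomain protein, and *cdh-12* (-1854 bp), a cadherin gene. The intergenic peaks of *drn-1*, a Ras-like gene (3078 bp), and of the tetraspanin gene *tsp-3* (3166 bp) were among the 11 on the downstream side.

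Exonic peaks were few and can be named in full. Exon 2 was hit in C35E7.9, a major sperm protein gene (exon 2 of 4), in *chd-7*, a chromodomain helicase gene (2 of 9), in *cht-4*, a chitinase gene (2 of 7), and in T20B6.3 (2 of 3). Exon 5 was hit in Y8A9A.2 (5 of 18), in the C-type lectin gene *clec-185* (5 of 7) and in *pqn-67* (5 of 8), which encodes a protein with a glutamine- and asparagine-rich domain. The others were exon 1 of 8 of R04E5.8, exon 3 of 5 of *grd-12*, exon 4 of 4 of Y113G7B.12 and exon 7 of 11 of F56F10.1, a putative serine protease gene. The peak nearest to *tag-297* lay in the last exon (10 of 10) of the neighbouring *mltn-10*. Exonic peaks were 233 to 707 bp wide, with 0 above 1000 bp.

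Intronic peaks had the highest median width of the 5 classes. All 261 peaks, measured from first to last base, had a median width of 404 bp, with quartiles of 309 and 548 bp and extremes of 229 and 1732 bp, and their lengths summed to 122483 bp. Intronic peaks had a median of 525 bp (quartiles 383 and 682 bp). The medians were 394 bp for intergenic peaks, 374 bp at promoters, 349.5 bp in exons and 339.5 bp at termination sites. The interquartile ranges of these classes overlapped with that of introns. The intronic median was above the median of the other classes on 6 of 6 chromosomes, from 435 against 395.5 bp on chromosome X to 585 against 381 bp on chromosome I. Only 5 intronic peaks stood behind the value on chromosome X. Peaks nearest to ncRNA genes had the same median width, 404 bp (quartiles 320.25 and 512.75 bp). Their intronic median was 491 bp over 10 peaks and their promoter median 368.5 bp over 56. The list gives no heights, so whether wider peaks were also stronger was not tested.

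**Figure D2:**
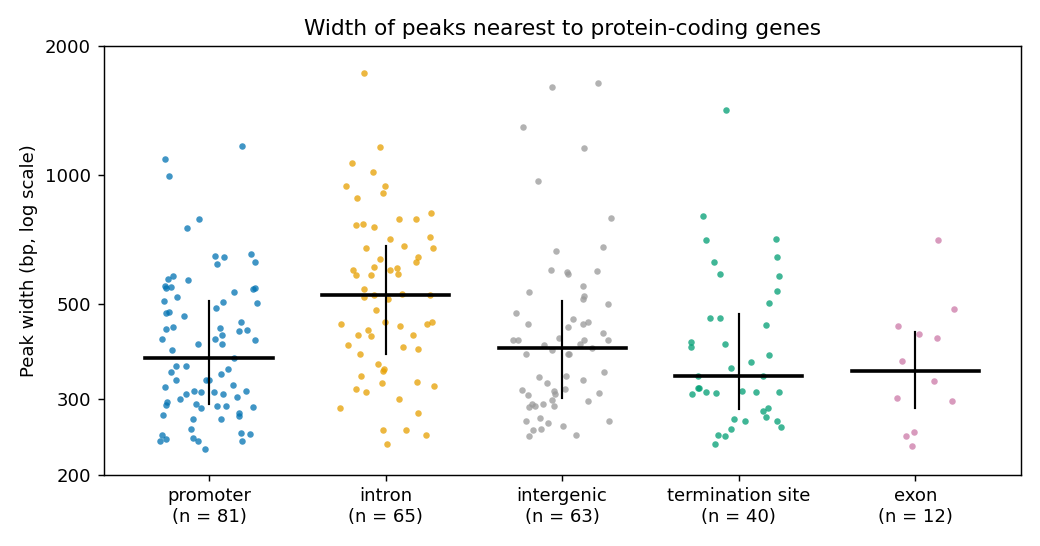
Peak width in bp (y axis, log scale) for each peak by annotation class (x axis), with a horizontal bar at the median and a vertical line from the first to the third quartile. The intron class has its median at 525 bp, and the other 4 classes have medians from 339.5 to 394 bp, with overlapping spreads.

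The widest peak, 1732 bp, lay in intron 3 of 4 of Y81B9A.2 (chromosome X, 9186994 to 9188725). Next came the intergenic peaks of *ddl-3* (1638 bp) and *efhc-1* (1602 bp) and the termination site peak of F58A6.1 (1421 bp). The intergenic peak of *nas-6*, an astacin-type metalloprotease gene, measured 1297 bp and the *isp-1* peak 1170 bp. Of 11 peaks wider than 1000 bp, 5 were on chromosome II, which carried 32 of the 261 peaks. These 5 were *ddl-3*, F58A6.1, Y48E1C.1 (1160 bp, intron 4 of 7), the chemoreceptor gene *sre-47* (1156 bp, intergenic) and *polg-1* (1066 bp, intron 5 of 9). Chromosomes III and V had 0 wider than 1000 bp. At the narrow end stood Y17G9B.8 (229 bp, promoter), F56F10.1 (233 bp, exon), and T19C3.6 and *ced-1* (236 bp each). The *ced-1* peak was annotated to intron 5 of 9 of the neighbouring *dhhc-2*. In all, 59 peaks were narrower than 300 bp.

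Of the 65 intronic peaks, 18 (27.7%, 17.3 to 40.2%) were in intron 1, and 5 of these were in transcripts with a single intron. Intron 2 had 11, intron 3 had 4, intron 4 had 9 and introns 5 and 6 had 8 each. Peaks in later introns had a median width of 543 bp over 47 peaks and those in first introns 454 bp over 18. First-intron peaks included *pde-6*, a cyclic nucleotide phosphodiesterase gene (1228 bp from the start, intron 1 of 7), and *hsd-1*, a hydroxysteroid dehydrogenase gene (991 bp, intron 1 of 6). They also included *egl-30*, which codes for the alpha subunit of Gq (909 bp, intron 1 of 7). Deeper positions were intron 6 of 9 of *oat-1*, an organic anion transporter gene, and intron 5 of 11 of *osm-12*. The latter encodes the homologue of a Bardet-Biedl syndrome protein, a component of the ciliary BBSome.

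In 8 of the 65 the intron belonged to a transcript with a non-coding accession, and for 7 of these the gene table gave an ncRNA gene. Of the 7, 5 belonged to an ncRNA gene that the table of the newer assembly WBcel235 places on a different chromosome from the peak. These are the peaks nearest to *ptc-3*, Y95B8A.2, Y54G2A.48, Y7A5A.7 and C30F2.5. The last 2 were annotated to the same transcript, each as intron 1 of 1, though they start at 15806470 and 16098006 on chromosome X. A promoter peak, that of Y48C3A.3, shares the mismatch of chromosome. For these 6 peaks the nearest gene was matched on the peak's own chromosome, and the annotated transcript was not. Without the 6, introns made up 23.5% of 255 peaks (18.5 to 29.2%). The remaining 2, nearest to *chil-24* and *sri-54*, were annotated to the same intron of the ncRNA gene Y53F4A.5, with centres 831 bp apart. For Y53F4A.5 only the chromosome was compared with that of the peaks, so a mismatch of position within it is not excluded.

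For a minority of peaks, the annotated transcript belonged to a gene other than the one listed. Of 198 peaks with an annotated transcript, 149 were annotated to the nearest gene or to the transcript at the nearest start, 39 to another gene, and 10 could not be resolved with the gene table. Among termination site peaks, 18 of 40 were annotated to another gene, against 7 of 81 promoter peaks and 13 of 65 intronic ones. The 39 include the 6 peaks, 5 of them intronic, whose transcript the gene table places on another chromosome. For these 6, the gene that held the peak is not known. For 27 of the 39 both genes were protein-coding, and in 25 of these 27 the 2 genes were direct neighbours in the order of protein-coding genes. Several termination site peaks therefore lay at the end of a gene with a known role while the list names another gene. The peak listed for *egg-1*, which encodes an oocyte protein needed for fertilization, was annotated to the end of *wrm-1*, a beta-catenin gene. The peak listed for T19C3.6 was at the end of *fem-2*, a sex determination phosphatase gene. Those listed for *wdr-46*, *stdh-4* and R107.2 were at the ends of *ccr-4*, *asns-1* and *ikke-1*. *ccr-4* encodes a deadenylase and *asns-1* an asparagine synthetase. Within introns, *vps-2* stood for a peak in intron 7 of 19 of *cnp-2*, and *fkh-6*, a forkhead gene, for a peak in intron 6 of 6 of B0286.1.

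Chromosome I carried 50 of the 261 peaks, V 49, III 47, IV 44, X 39 and II 32. The mix of classes was not the same on each. Introns held 17 of 50 peaks on chromosome I, 11 of 32 on II and 14 of 47 on III, but 7 of 49 on V and 5 of 39 on X. Intergenic peaks made up 16 of 39 on X and 15 of 49 on V, against 7 of 50 on I and 5 of 32 on II. Promoter counts ranged from 8 of 32 on II to 17 of 44 on IV. Upstream positions ranged from 13 of 32 on II to 31 of 44 on IV. The median distance to a start was 891 bp on I and 1789.5 bp on II, with the others from 1252.5 to 1497 bp. The share of each chromosome's sequence that is intron or lies between genes was not computed here, so these counts do not show a preference.

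**Figure D3:**
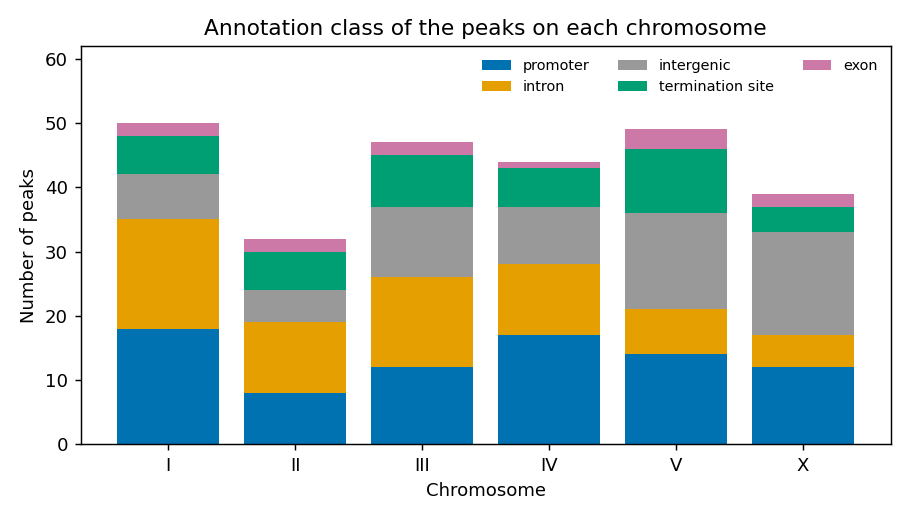
Number of peaks (y axis) on each nuclear chromosome (x axis), stacked by annotation class. Chromosome I has 17 intronic and 7 intergenic peaks, and chromosome X has 5 intronic and 16 intergenic peaks.

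Neighbouring peaks of protein-coding genes were a median of 229.9 kb apart, counted between centres, and 15 neighbouring pairs, involving 29 peaks, had centres within 10 kb. The pairs include the potassium channel accessory gene *mps-3* with T06A4.3 (4696.5 bp), *bet-1* with Y119C1B.3 (9386 bp) and *daf-14* with F01G10.9 (9327 bp). *lin-66*, a heterochronic gene that affects developmental timing, paired with B0513.2 (3007 bp). On chromosome X, *efhc-1* paired with Y49A10A.2 (5531 bp), and both peaks were intergenic and downstream of the nearest start.

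By the words in the descriptions, transcription factors and metabolic enzymes were the largest described groups, with 13 genes each. The metabolic group takes in *glb-25*, described only as globin related, and leaves out *mvk-1*, which was counted with the kinases. Kinases and phosphodiesterases, cytoskeleton, adhesion and cilia genes, and F-box, ubiquitin ligase and protease genes had 11 each. Ion channels and transporters, and chemoreceptors, had 10 each. A further 16 described genes fell in no keyword group. How many genes of each kind the genome holds was not set against these counts, so they do not show that any kind was favoured. Over all 261 peaks, 31.0% were at promoters, 24.9% in introns and 57.9% upstream. No group was tested against these shares, and the groups are small. The 141 described genes had 48 promoter, 37 intergenic, 30 intronic, 19 termination site and 7 exonic peaks. The 120 undescribed ones had 33, 26, 35, 21 and 5, with a median width of 424.5 bp against 383 bp.

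**Figure D4:**
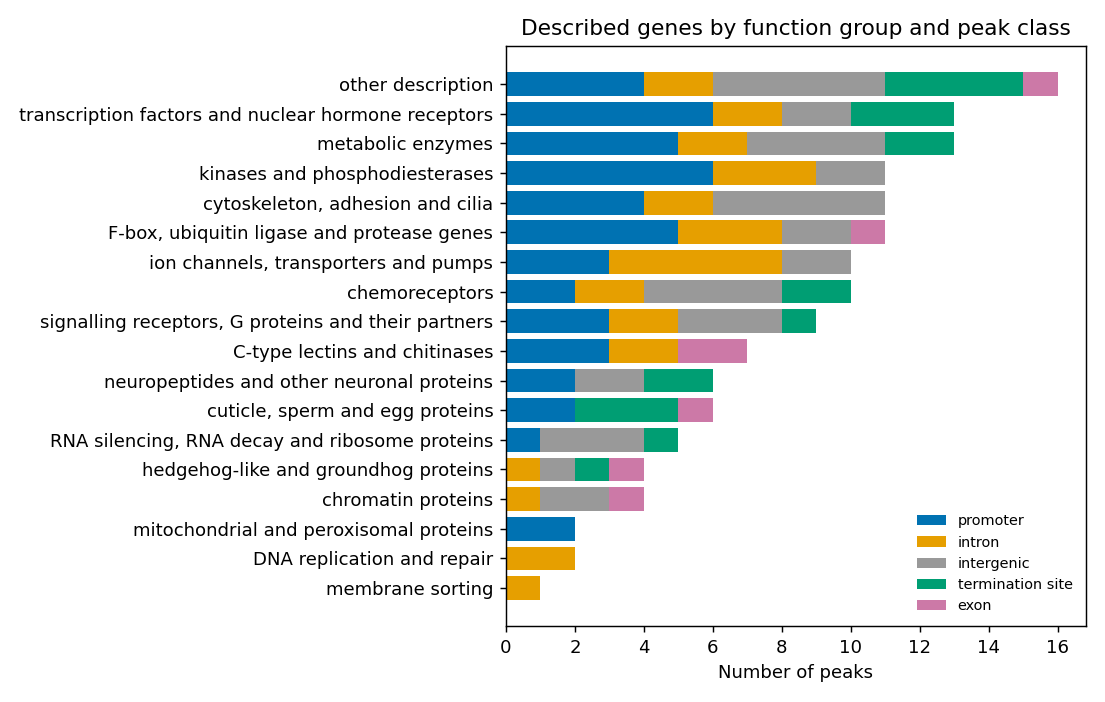
Number of peaks (x axis) in each function group of the 141 described genes (y axis), stacked by annotation class. Transcription factor and kinase groups have 6 promoter peaks each, and the ion channel and transporter group has 5 intronic and 3 promoter peaks.

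Of the 13 transcription factor genes, 6 had a promoter peak. *hlh-30*, whose product resembles TFEB and controls autophagy genes, had one at -136 bp that was annotated to the ncRNA gene F35F11.4, and *madf-9* had one at -218 bp. *daf-19*, the RFX factor gene of ciliated neurons, had one at -226 bp, and *dmd-9*, a DM domain gene, at -356 bp. The nuclear hormone receptor gene *nhr-237* (-529 bp) and the zinc finger gene *miz-1* (-630 bp) completed the 6. The homeobox genes *zfh-2* and *ceh-76* instead had an intronic peak at 422 bp (intron 7 of 17) and a termination site peak at 1303 bp. The transcript that holds the *zfh-2* peak did not match the gene table. The *ell-1* elongation factor gene had an intergenic peak at -1604 bp. Upstream peaks made up 10 of the 13, against 57.9% of all 261 peaks, and this difference was not tested. Related to *daf-19* by background, *xbx-4*, a gene named for the X-box element that DAF-19 binds, had a promoter peak at -450 bp that was annotated to its neighbour C23H5.8.

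Of the 11 kinase and phosphodiesterase genes, 10 had an upstream peak and 6 a promoter one. Over all 261 peaks these shares were 57.9% and 31.0%, and the difference was not tested. Not all of the 10 lay in front of the gene. Those of *tlk-1* (-1645 bp, intron 1 of 7) and *unc-43* (-2175 bp, intron 2 of 18) were annotated to introns of the listed gene itself. The promoter peaks of the group were those of *kin-29* (-202 bp), *kin-1* (-287 bp), *mvk-1* (-482 bp), *mlk-1* (-549 bp), *kin-14* (-639 bp) and *lit-1* (-817 bp). *kin-29* encodes a salt-inducible kinase that regulates chemoreceptor expression and body size. *kin-1* codes for the catalytic part of protein kinase A. *mvk-1* encodes mevalonate kinase, a metabolic enzyme of isoprenoid synthesis rather than a signalling kinase. *lit-1* encodes the Nemo-like kinase that acts with the beta-catenin WRM-1 in Wnt signalling. *mlk-1* and *mkk-4* belong to different tiers of mitogen-activated protein kinase cascades, and the *mkk-4* peak was intergenic at -1422 bp. The widest peak of the group, that of *mvk-1*, measured 628 bp. The peak listed for Y71H10B.1 was annotated to the end of *kin-29*, so both ends of that gene had a peak, 8205.5 bp apart.

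Of the 10 channel, transporter and pump genes, 5 had an intronic peak. These were *lgc-38*, a ligand-gated channel gene (intron 2 of 12, 1332 bp), *oat-1* (1675 bp), *twk-33*, a potassium channel gene (intron 5 of 11, 2084 bp), *eat-2* (intron 3 of 5, 2090 bp) and *mca-3* (intron 5 of 10, 3426 bp). *eat-2* encodes a nicotinic acetylcholine receptor subunit needed for pharyngeal pumping, and *mca-3* a plasma membrane calcium pump. The transcript that holds the *mca-3* peak did not match the gene table. Promoter peaks stood at *rft-1*, a riboflavin transporter gene (-359 bp), *mps-3* (-724 bp) and *trpa-1*, a TRPA cation channel gene (-879 bp). The degenerin-like gene *asic-1* (-4308 bp) and the half-transporter gene *haf-7* (-4868 bp) had distant intergenic ones. Peaks in this group were 288 to 789 bp wide, with a median of 341.5 bp.

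Among 9 genes that the keywords placed with signalling receptors, G proteins and their partners, the promoter peaks were those of *daf-1*, *rpy-1* (-538 bp) and *gsa-1* (-591 bp). This keyword group leaves out *egl-30* and *daf-14*, which the list describes as hypothetical proteins. *rpy-1* encodes a rapsyn homologue, a protein that clusters acetylcholine receptors, and *gsa-1* the Gs alpha subunit that stimulates adenylyl cyclase. The Gs, protein kinase A and phosphodiesterase genes *gsa-1*, *kin-1* and *pde-6* belong to signalling through the same second messenger, cyclic AMP. *gipc-2* had a termination site peak at 2017 bp. Of 4 hedgehog-like genes, *grd-12* had an exonic peak (670 bp), *grl-29* a peak at 154 bp that was annotated to the end of T24A6.20, *wrt-9* an intergenic peak (-1235 bp) and *grl-15* an intronic peak (2049 bp). None of the 4 was a promoter peak. *ptc-3*, a gene of the patched family related to hedgehog receptors, was nearest to an intronic peak at -2362 bp.

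The keyword group of neuropeptides and other neuronal proteins had 6 genes. It leaves out *eat-2*, described as a neuronal acetylcholine receptor subunit and counted with the channels. Promoter peaks in the group stood at *ncs-2*, a neuronal calcium sensor gene (-281 bp), and the neurexin gene *nrx-1* (-409 bp). *zig-11* (-1327 bp) and *inso-1* (-2108 bp) had intergenic peaks, and *nlp-38*, a neuropeptide gene (1890 bp), and *hot-3* (1568 bp) had termination site peaks, the latter at the end of *mltn-5*. The 10 chemoreceptor genes had 2 promoter, 2 intronic, 2 termination site and 4 intergenic peaks, at 685 bp (*srh-19*) to 4628 bp (*srsx-9*) from the start on either side.

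Cytoskeleton, adhesion and cilia genes had 5 intergenic, 4 promoter and 2 intronic peaks. The intronic ones were those of *osm-12* and *ced-1*. The description of *ced-1* names cell death only, and its peak was annotated to *dhhc-2*. The promoter peaks were those of the afadin gene *afd-1* (-263 bp), *xbx-4*, the cofilin gene *unc-60* (-461 bp) and the alpha-spectrin gene *spc-1* (-808 bp). The gene table gives the transcript at the *unc-60* peak to F53E2.2. The others with an upstream position were the intergenic peaks of *frm-5.1* (-1302 bp), *gei-4* (-1476 bp) and *cdh-12*. Of 6 cuticle, sperm and egg genes, 3 had a termination site peak, namely *msp-113* (1379 bp), *egg-1* (-1325 bp) and *cutl-4* (-2882 bp). The last was at the end of the channel gene *twk-36*. *ule-1*, named for expression in the uterine lumen, had a promoter peak at -777 bp.

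The 11 F-box, ubiquitin ligase and protease genes had 5 promoter peaks, namely *cpz-1*, *clp-4*, *dpf-6* (-334 bp), *fbxa-75* (-556 bp) and *wdr-23* (-873 bp). The transcript given for the *clp-4* peak did not match the gene table. *dpf-6* encodes a dipeptidyl peptidase and *wdr-23* a substrate receptor of a CUL4 ubiquitin ligase. A second calpain gene, *clp-7*, had an intronic peak at -1820 bp (intron 4 of 7). Among the 7 lectin and chitinase genes, *clec-113* (-656 bp), *clec-9* (-702 bp) and *clec-80* (-745 bp) had promoter peaks. *clec-112* had an intronic peak of 1015 bp.

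Among 13 metabolic genes, 5 had promoter peaks. These were *aco-1*, a cytoplasmic aconitase gene (-217 bp), *fah-1* (-237 bp), *erg-28* (-335 bp), *cyn-5* (-408 bp) and *ech-7* (-607 bp). *fah-1* encodes fumarylacetoacetase, the last enzyme of tyrosine breakdown, *cyn-5* a cyclophilin and *ech-7* an enoyl-CoA hydratase. *algn-7*, whose product starts N-glycan synthesis, had an intronic peak 4763 bp from its start. Of the 5 genes whose descriptions name a mitochondrial or peroxisomal protein, *mff-1* (-302 bp) and *isp-1* had promoter-class peaks, *polg-1* and *lonp-2* (2813 bp) intronic ones and *mrpl-15* an intergenic one at -5522 bp. Genes of RNA silencing and decay included *alg-1*, an Argonaute gene of the microRNA pathway (-417 bp, promoter). The nonsense-mediated decay genes *smg-6* (-1880 bp, intergenic) and *smg-9* (5312 bp, termination site) had peaks on opposite sides of their starts. *somi-1*, a gene that suppresses the effects of excess microRNA, had an intergenic peak at -2154 bp.

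Of the 4 genes in the chromatin keyword group, 0 had a promoter peak, against 31.0% of all 261 peaks. A chromatin gene whose description holds none of the keywords would not be counted in this group. The 0 therefore covers these 4 genes only, and does not show that chromatin genes in the list lacked promoter peaks. *bet-1* and *set-15* (-1219 bp) had intergenic peaks, *chd-7* an exonic one at 983 bp and *sor-1*, a Polycomb-type repressor gene, an intronic one at 1074 bp (intron 3 of 7). Genes outside the keyword groups include *pals-11* (485 bp) and *pals-7* (580 bp), both with a peak in intron 1 of 2. They also include *spat-3* (-671 bp, promoter), the cyclin gene *cyb-2.1* (-1196 bp, termination site of Y43E12A.2) and *sdf-9* (-2019 bp, intergenic). Among the undescribed genes, *eat-17*, a Rab GTPase-activating protein gene of the pharynx, had a promoter peak at -332 bp and *lin-66* one of 790 bp at -558 bp. *egl-26* had an intergenic peak at -3115 bp.

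Gene types were checked against the RefSeq table of WBcel235. Of the 261 names, 258 matched a gene, of which 255 are protein-coding there and 3 (K09F6.4, ZK380.5 and Y75D11A.1) are pseudogenes. The 3 names without a match were Y50D7A.11, Y53G8AM.2 and ZC190.9.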

How the data were processed

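The deposited table is a list of peaks of the whole series. Per the file headers it gives position, annotation class, distance to the nearest start (in bp), gene, description and gene type, and no score. The submitters' processing notes name the build ce10 and the tools MACS2 2.1.0, Bowtie2 2.2.6, Trimmomatic 0.35 and Picard, with no role for any. How peaks were annotated, filtered or pooled is not given in the sources used here. Peaks with gene type protein-coding were kept. Nearest genes and annotated transcripts were matched by symbol, older name or accession to RefSeq's gene table (WBcel235), used for names, gene types, chromosome and gene order only. Function groups come from keywords in the deposited description, first match taken (17 groups). Shares carry exact (Clopper-Pearson) 95% intervals and medians in the alternatives exact order-statistic intervals. No test was run, because each group has 1 library. Members, lists and keywords were chosen with earlier results of these data known, and keywords were refined after the descriptions were read. Named genes are the widest, narrowest, nearest and farthest, all exonic ones, pairs within 10 kb and up to 5 nearest to a start per group; the others were chosen after their values were seen. No sequence was printed, since no sequence of build ce10 was used here. The functions were tested on simulated data. Python 3.11.15, pandas 2.3.3, NumPy 2.4.6, SciPy 1.17.1 and matplotlib 3.10.9 were used.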

Additional observations from a re-analysis of the deposited data

How the results depend on the processing

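The promoter share, 31.0% by the deposited classes, was 14.2%, 29.1% and 45.2% when promoters were windows that ended 100 bp past the nearest start and began 500, 1000 or 2000 bp before it, and a wider window takes in more peaks by construction. Keeping only the 149 peaks annotated to the nearest gene removes all intergenic peaks. It gave a promoter share of 48.3%, an intron share of 31.5%, a median distance of 835 bp and an upstream share of 52.3%. Measured from the nearest edge of the peak, the median distance was 1148 bp. Promoter peaks alone had a median width of 374 bp, against 404 bp for all, with or without merging peaks within 1000 bp. The gene table's types gave 255 members. Leaving out peaks that span the start gave an upstream share of 57.8%. Leaving out annotated transcripts placed on another chromosome, chosen after seeing the data, gave an intron share of 23.5%. Counting each gene once could change nothing, since 0 genes had more than 1 listed peak. Allowing several keyword groups per gene moved 1 of 19 groups, mitochondrial and peroxisomal proteins, from 2 to 5 genes. Keywords from the gene table's descriptions and motif counts in promoter windows were not run, because the reference used here holds neither. No paired analysis was possible because there are no replicates and the list is tied to no library. Depth is unknown.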
